A study of Mus musculus with 4 samples.

Results

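The nuclear-encoded genes of the mitochondrial respiratory chain were compared between APPswe/PS1dE9 and wild-type (WT) neural cultures, complex by complex. A gene was taken where an array probe carried a RefSeq accession whose mouse symbol begins with Nduf, Uqcr, Cox4 to Cox8 or Atp5, or is Sdha, Sdhb, Sdhc or Sdhd. This gave 93 genes, read by 124 of the 55681 non-control probes, out of 20887 genes that the probes matched. By symbol, 38 belonged to complex I, 4 to complex II, 8 to complex III, 18 to complex IV and 17 to complex V, and 8 were Ndufaf assembly factors of complex I, which build the complex without staying in it.

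The respiratory chain sits in the inner mitochondrial membrane. Complex I oxidizes NADH and complex II oxidizes succinate, complex III passes the electrons to cytochrome c, and complex IV hands them to oxygen. Complexes I, III and IV pump protons, and complex V, the ATP synthase, uses the returning protons to make ATP. Neurons draw much of their ATP from this chain, whereas astrocytes rely more on glycolysis. Several subunits of complexes IV and V exist as isoforms from separate genes, some of which are best known from heart, skeletal muscle, lung or testis.

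RNA came from differentiated neural precursor cells of the telencephalon of C57BL/6 embryos at day 13. Cells of both genotypes grew for 5 days as neurospheres with EGF and FGF2, then for 7 days without these factors on poly-L-lysine and laminin. Each of 4 two-colour arrays carried RNA, amplified from 100 ng, of 1 APPswe/PS1dE9 culture, from mice with transgenes of familial Alzheimer's disease, and of 1 WT culture, with APPswe/PS1dE9 in Cy3 on arrays 1 and 2 and in Cy5 on arrays 3 and 4. The series design counts 4 biological replicates per genotype but names no animals or litters. The p-values therefore cover the variation among the 4 arrays alone, which may be partly technical. By the sex markers below, each genotype held cultures of unlike sex. The promoters of the transgenes are not given in the sources used here.

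Per array and channel, 47.5% to 59.6% of the 59305 spots exceeded background clearly by the scanner software's own mark, called well above background here, and saturation marked 0 spots. Markers of neurons (12 of 12), astrocytes (10 of 10) and the oligodendrocyte lineage (8 of 8) were above the filter on dim probes. The probe for App was at a log2 ratio of 0.12 ± 0.06 (SE, limma adjusted p = 0.280), and whether it reads the transgene is not given. On arrays 1 and 3 the 2 cultures differed in whether Xist or the Y-linked Eif2s3y was well above background, so each of these arrays paired cultures of unlike sex. Arrays 2 and 4 had Xist in both cultures and Eif2s3y in neither. Values below are log2 ratios of APPswe/PS1dE9 over WT with the standard error (SE) of a limma fit over 4 arrays, and "adjusted p" is Benjamini-Hochberg adjusted over all 20628 features tested, with a threshold of 0.05. The fit has a dye term, so its SE covers the spread between arrays of the same dye orientation and leaves out a difference between orientations.

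Of the 93 genes, 91 passed the filter on dim probes, and 2 of these were higher in APPswe/PS1dE9 cultures, 0 were lower and 89 did not pass the test. Both higher genes encode complex IV isoforms, Cox6a2 and Cox6b2. The share called was 2.20% of the 91 genes, against 10.5% of all features in either direction (8.24% higher and 2.28% lower). At an unadjusted p under 0.05 in the limma fit, 7 of the 91 genes were higher and 0 lower, against 15.8% and 9.73% of all features. The genes below the filter were the testis-type isoforms Cox7b2, well above background on 1 array in either genotype, and Cox8c, on 0.

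Cox6a2 encodes the form of subunit VIa best known from heart and skeletal muscle, and Cox6b2 the form of subunit VIb best known from testis. Their partners Cox6a1 and Cox6b1 are the forms found in most tissues. To show how these genes are arranged upstream, the 250 bases before the annotated start are printed for the 3 of the 4 that the promoter table holds (RefSeq, GRCm38.p6, 5′ to 3′ on the strand of the gene). Capitals mark matches, on either strand, to the NRF1 motif (GCGCA, any base, then GCGC) or the GABPA motif CCGGAAG, motifs of 2 factors known to act on respiratory chain genes.
Cox6b2, chr7:4753095-4753344, minus strand: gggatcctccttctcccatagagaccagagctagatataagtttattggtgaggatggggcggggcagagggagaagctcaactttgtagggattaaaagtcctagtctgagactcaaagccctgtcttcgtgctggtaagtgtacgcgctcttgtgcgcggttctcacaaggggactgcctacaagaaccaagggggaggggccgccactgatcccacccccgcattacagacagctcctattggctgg
Cox6b1, chr7:30626115-30626364, minus strand: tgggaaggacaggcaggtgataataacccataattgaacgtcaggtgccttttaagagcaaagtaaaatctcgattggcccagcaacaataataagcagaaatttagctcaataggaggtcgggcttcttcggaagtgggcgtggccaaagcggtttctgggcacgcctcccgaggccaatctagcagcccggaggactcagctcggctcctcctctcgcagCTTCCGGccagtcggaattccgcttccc
Cox6a1, chr5:115348959-115349208, minus strand: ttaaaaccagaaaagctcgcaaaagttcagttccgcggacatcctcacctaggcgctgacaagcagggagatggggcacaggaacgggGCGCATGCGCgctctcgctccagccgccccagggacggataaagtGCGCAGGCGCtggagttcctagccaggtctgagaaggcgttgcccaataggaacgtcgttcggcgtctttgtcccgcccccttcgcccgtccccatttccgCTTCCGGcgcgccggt

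The Cox6a1 window held 2 matches to the NRF1 motif and 1 to the GABPA motif, the Cox6b1 window held 1 to the GABPA motif, and the Cox6b2 window held neither. Among the 76 of the 93 genes with an entry in the table, 14 (18.4%) had the NRF1 motif, against 4.23% of all 27025 genes in it. The GABPA motif was in 14 (18.4%), against 7.83% of all genes. The motif AAGATGGC of YY1 was in 1 (1.32%), against 1.83%, and TCAAGGTCA of ESRRA, an estrogen-related receptor, was in 1 (1.32%), against 0.422%. TATAAA, the TATA box, was in 7 (9.21%), against 14.3%. By complex, the NRF1 motif was found in 6 of 33 genes of complex I and 2 of 3 of complex II. It was found in 0 of 5 of complex III, 1 of 13 of complex IV and 4 of 15 of complex V. Among the Ndufaf assembly factors it was found in 1 of 7. A match is a string of letters and was not tested as a binding site.

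Cox6a2 had normalized log2 intensities of 7.43, 7.41, 7.65 and 7.74 in the APPswe/PS1dE9 cultures of arrays 1 to 4, against 7.00, 6.71, 6.95 and 6.98 in the WT cultures. All 4 APPswe/PS1dE9 values lay above all 4 WT values. The log2 ratios were 0.43, 0.70, 0.71 and 0.76, and the fit gave 0.65 ± 0.07 (SE, n = 4 arrays), a 1.57-fold higher level (adjusted p = 0.00379). In WT cultures its spot was marked well above background on 3 of 4 arrays. The probe was dim, and its ratio depended on the processing. With an offset of 16 in place of 50 added before taking logs it was at 0.85 (adjusted p = 0.00380), and with the scanner software's processed signals, which differ in offset, background correction and normalization, it was at 1.06 (adjusted p = 0.0194). Its call was lost without replicate 3 (0.66 on the log2 scale, adjusted p = 0.0570), and when replicate 4 was left out (0.64, adjusted p = 0.0689).

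Cox6b2 had log2 intensities of 8.68, 8.52, 8.69 and 9.07 in APPswe/PS1dE9 cultures, against 8.16, 8.01, 8.09 and 8.25 in WT cultures. Again no APPswe/PS1dE9 value fell within the WT range. The ratios of 0.52, 0.51, 0.60 and 0.82 gave 0.61 ± 0.07 (SE, n = 4 arrays), a 1.53-fold higher level (adjusted p = 0.00373). Cox6b2 did not pass with the processed signals (0.59, adjusted p = 0.0541), with the authors' deposited value table (0.59, adjusted p = 0.0543) or without replicate 4 (0.56, adjusted p = 0.0554). On arrays 2 and 4 alone, the arrays of like sex, Cox6a2 was at 0.73 (adjusted p = 0.0368) and Cox6b2 at 0.66 (adjusted p = 0.0700). That fit also had no dye term, so it differs from the main fit in more than the arrays used.

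**Figure D1:**
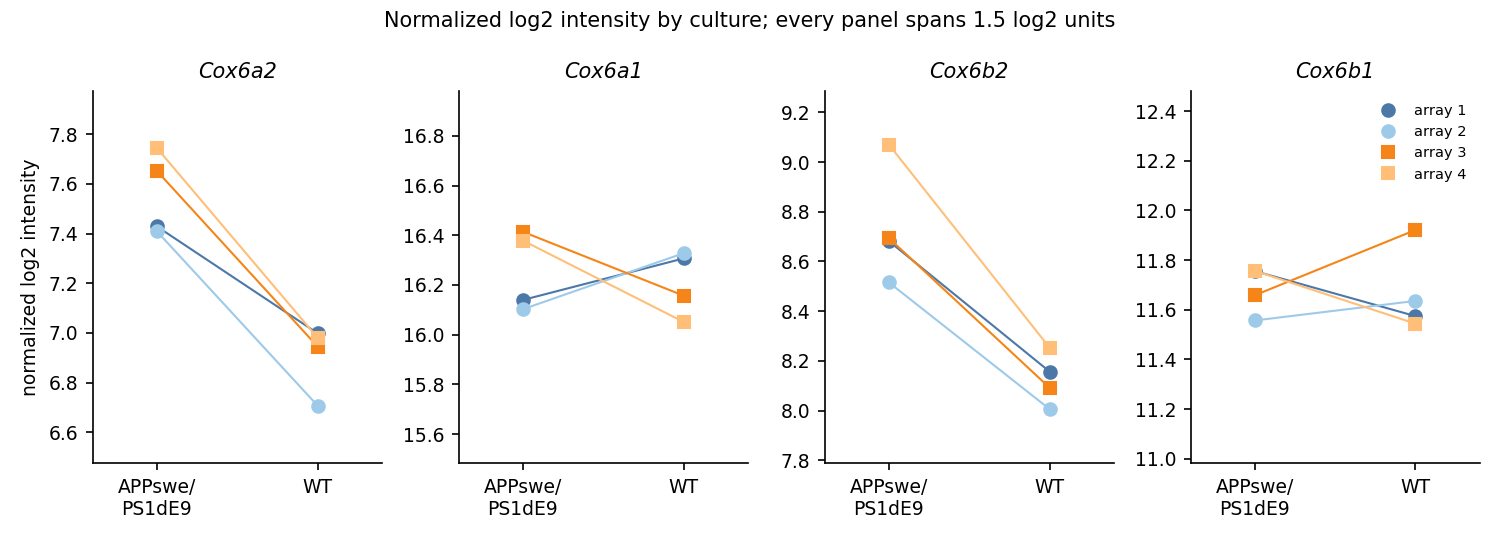
Normalized log2 intensity (vertical axis, 1.5 log2 units in every panel) of 4 complex IV genes in the APPswe/PS1dE9 and the WT culture of each array, joined by a line. Circles are arrays with APPswe/PS1dE9 in Cy3 and squares those with it in Cy5. For Cox6a2 and Cox6b2 the genotypes lay in separate ranges, while for Cox6a1 and Cox6b1 the lines slope both ways.

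The partner isoforms did not pass the test. Cox6a1 had log2 intensities of 16.14, 16.10, 16.41 and 16.38 in APPswe/PS1dE9 cultures, against 16.31, 16.33, 16.16 and 16.05 in WT cultures. It was lower on both arrays with APPswe/PS1dE9 in Cy3 (-0.17 and -0.23) and higher on both with APPswe/PS1dE9 in Cy5 (0.26 and 0.33), which averaged to 0.05 ± 0.06 (adjusted p = 0.672). Cox6b1 had intensities of 11.76, 11.56, 11.66 and 11.76 in APPswe/PS1dE9 cultures, against 11.57, 11.64, 11.92 and 11.54 in WT cultures, and a ratio of 0.01 ± 0.10 (adjusted p = 0.950). Within an array, the log2 ratio of Cox6a2 exceeded that of Cox6a1 by 0.60 ± 0.23 (SD, n = 4 arrays), and that of Cox6b2 exceeded that of Cox6b1 by 0.60 ± 0.21 (SD, n = 4 arrays), on 4 of 4 arrays in both cases. With the processed signals and with the authors' deposited value table the first of these differences was 1.04. These pairs were singled out because of Cox6a2 and Cox6b2, so the differences are descriptions and were not tested.

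The other isoform families of complex IV gave smaller values. Cox4i2, the lung form of subunit IV that is known to respond to low oxygen, had log2 intensities of 8.67, 8.39, 8.30 and 8.89 in APPswe/PS1dE9 cultures, against 8.40, 8.23, 8.08 and 8.64 in WT cultures. The ranges overlapped across arrays, but within each array APPswe/PS1dE9 was the higher, with ratios of 0.27, 0.16, 0.22 and 0.25. The fit gave 0.22 ± 0.06, which did not pass (adjusted p = 0.0743, the lowest among the 89 genes). Its partner Cox4i1 was at 0.07 ± 0.06, with 0.26 and 0.21 on arrays 1 and 2 and -0.09 and -0.08 on arrays 3 and 4. Within an array Cox4i2 exceeded Cox4i1 by 0.15 ± 0.20 (SD, n = 4 arrays), on 3 of 4.

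In the subunit VIIa family, Cox7a2l was at 0.19 ± 0.06 (adjusted p = 0.119) and positive on 4 of 4 arrays. Cox7a1, the heart and muscle form, was at 0.09 ± 0.07, and Cox7a2, the widespread form, at 0.01 ± 0.07. Cox8b, the muscle form of subunit VIII, ranged from -0.37 on array 3 to 0.34 on array 1, with a fitted ratio of 0.04 ± 0.10, and the widespread Cox8a was at 0.14 ± 0.06 (adjusted p = 0.221). Among the remaining complex IV genes, Cox7b was at 0.04 ± 0.07, and the lowest were Cox7c (-0.08 ± 0.08) and Cox5a (-0.05 ± 0.06), small and structural subunits around the catalytic core.

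**Figure D2:**
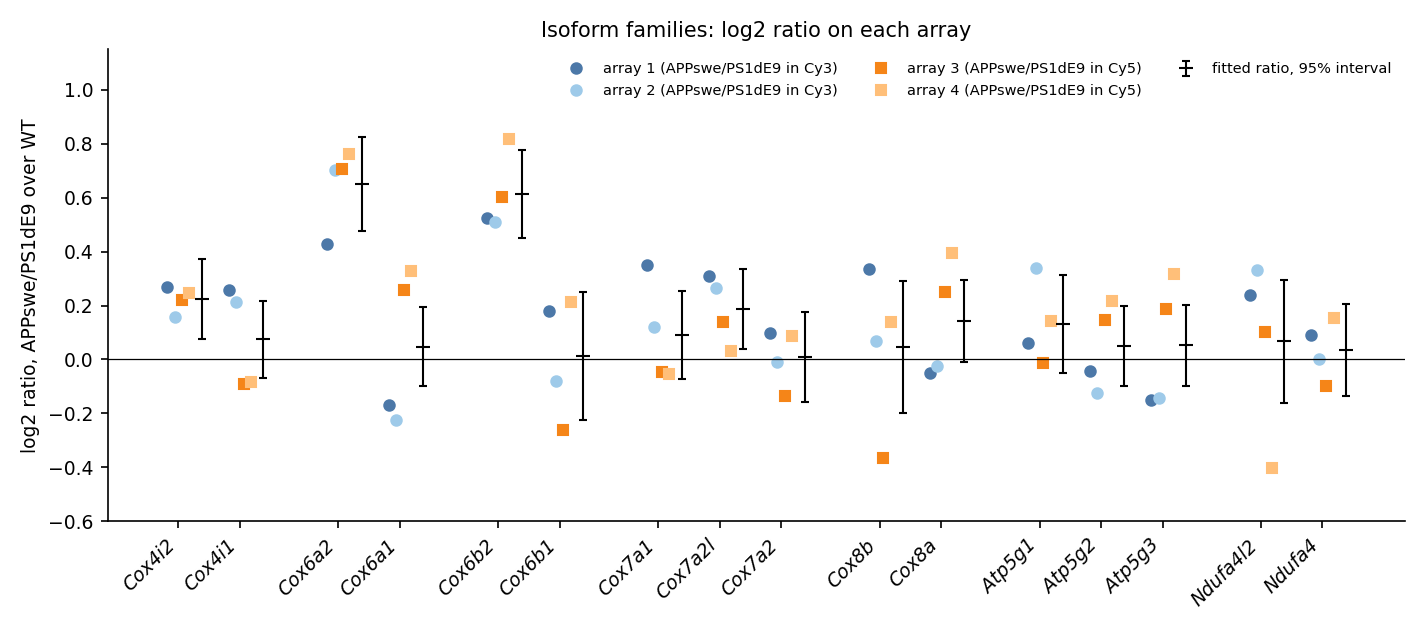
Log2 ratio of APPswe/PS1dE9 over WT (vertical axis) for the genes of each isoform family (horizontal axis), with 1 point per array and, in black, the fitted ratio with its 95% interval. Every array put Cox6a2 and Cox6b2 above 0.4, and all other intervals ended below 0.4.

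Complex I had 38 genes tested, of which 0 were higher and 0 lower in the limma fit (1 higher and 0 lower at an unadjusted p under 0.05). Its median log2 ratio was 0.03, with array medians of 0.05, -0.03, -0.02 and 0.10. The 7 core subunits, which carry the flavin and the iron-sulfur clusters or the quinone site, all had ratios above 0 with loess, and all 7 had ratios below 0, down to -0.13, under median centring of the arrays. Ndufs7 was the highest of them at 0.17 ± 0.06 (adjusted p = 0.152), and Ndufv1 was at 0.11 ± 0.06. Ndufs3 (0.07 ± 0.06), Ndufv2 (0.04 ± 0.07), Ndufs1 (0.04 ± 0.06) and Ndufs8 (0.02 ± 0.10) were closer to 0. None of the core subunits passed. The core median was 0.07, with array medians between 0.07 and 0.16, and the median of the 31 accessory subunits was 0.03.

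Ndufs7 had log2 intensities of 13.03, 12.88, 13.12 and 13.14 in APPswe/PS1dE9 cultures, against 13.01, 12.78, 12.87 and 12.83 in WT cultures, and these ranges overlapped. Among accessory subunits Ndufa10 was the highest at 0.16 ± 0.07 (adjusted p = 0.199). Ndufab1, the mitochondrial acyl carrier protein, had the lowest ratio of all 91 genes, -0.20 ± 0.09 (adjusted p = 0.219). Its intensities were 7.80, 7.86, 7.79 and 7.95 in APPswe/PS1dE9 cultures, against 8.16, 7.97, 8.13 and 7.93 in WT cultures, so the groups overlapped on array 4. Ndufs4, a late-assembling subunit whose loss in mice gives a model of Leigh syndrome, was at -0.07 ± 0.06. Ndufa4, which stands here by its symbol and is now counted with complex IV, was at 0.04 ± 0.07, and Ndufa4l2, known to be induced by low oxygen, ranged from -0.40 on array 4 to 0.33 on array 2.

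Of the 8 Ndufaf assembly factors, 0 were higher and 0 lower in the limma fit (1 higher and 0 lower at an unadjusted p under 0.05), and their median was -0.01. Ndufaf3, an early assembly factor, was the highest at 0.24 ± 0.07 (adjusted p = 0.0922) and positive on 4 of 4 arrays. Its intensities were 9.37, 9.14, 9.37 and 9.51 in APPswe/PS1dE9 cultures, against 9.02, 9.07, 9.12 and 9.22 in WT cultures, which overlapped through array 2. The next was Ndufaf7 at 0.03 ± 0.07. Ndufaf2 was the lowest at -0.13 ± 0.07, and Ndufaf6, fitted on 3 arrays because its spot on array 4 carried an outlier mark, was at -0.07 ± 0.10.

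The 4 subunits of complex II, which is also the succinate dehydrogenase of the citric acid cycle, had a median of 0.03. The catalytic flavoprotein Sdha was at 0.10 ± 0.07, the iron-sulfur subunit Sdhb at 0.05 ± 0.07, and the membrane anchors Sdhc and Sdhd at 0.02 ± 0.09 and 0.01 ± 0.08. None passed, and at an unadjusted p under 0.05 there were 0 in the limma fit. No Sdh gene had 1 sign on all 4 arrays. Sdhc and Sdhd had their highest ratio on array 1 (0.22 and 0.26) and their lowest on array 3 (-0.22 and -0.25).

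Among the 8 subunits of complex III, Uqcrc1, one of its large core proteins, was the highest at 0.19 ± 0.07 (adjusted p = 0.168). Its intensities were 11.78, 11.97, 11.91 and 11.997 in APPswe/PS1dE9 cultures, against 11.78, 11.68, 11.63 and 11.80 in WT cultures, with array 1 at a ratio of -0.0027 and arrays 2 to 4 between 0.20 and 0.28. The other core protein, Uqcrc2, was at 0.05 ± 0.06, and Uqcrfs1, the Rieske iron-sulfur protein, at -0.01 ± 0.07. The hinge protein Uqcrh (0.07 ± 0.08) and the small subunits Uqcr11 (0.07 ± 0.08), Uqcr10 (0.04 ± 0.07), Uqcrq (0.01 ± 0.06) and Uqcrb (-0.03 ± 0.08) were close to 0 as well. The median was 0.04, 0 genes passed, and 1 was higher and 0 lower at an unadjusted p under 0.05 in the limma fit.

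Complex V had 17 genes tested and a median of 0.02, with 0 past the threshold and 0 at an unadjusted p under 0.05 in the limma fit. Atp5d, a subunit of the central stalk, was the highest and had the most even ratios of the named genes: 0.14, 0.16, 0.14 and 0.11 on arrays 1 to 4. Its intensities were 12.85, 12.80, 12.78 and 12.88 in APPswe/PS1dE9 cultures, against 12.71, 12.65, 12.64 and 12.77 in WT cultures, without overlap, and the fit gave 0.14 ± 0.06 (adjusted p = 0.210), against -0.03 under median centring. The central stalk subunit Atp5c1 was the lowest at -0.10 ± 0.06, and Atp5pb of the peripheral stalk was at -0.04 ± 0.06. The 3 genes that encode the c subunit of the rotor ring, Atp5g1, Atp5g2 and Atp5g3, were at 0.13 ± 0.07, 0.05 ± 0.06 and 0.05 ± 0.06.

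Across the 91 genes, all APPswe/PS1dE9 intensities lay above all WT intensities in 4, namely Cox6a2, Cox6b2, Ndufa13 and Atp5d, against 7.97% of all features, and below them in 0 genes, against 4.46%. Ndufa13, a complex I subunit also known as a cell death regulator, was at 0.12 ± 0.06 (adjusted p = 0.281). The same sign on all 4 arrays was found in 11 genes, 10 positive and 1 negative, against 28.6% of all features.

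**Figure D3:**
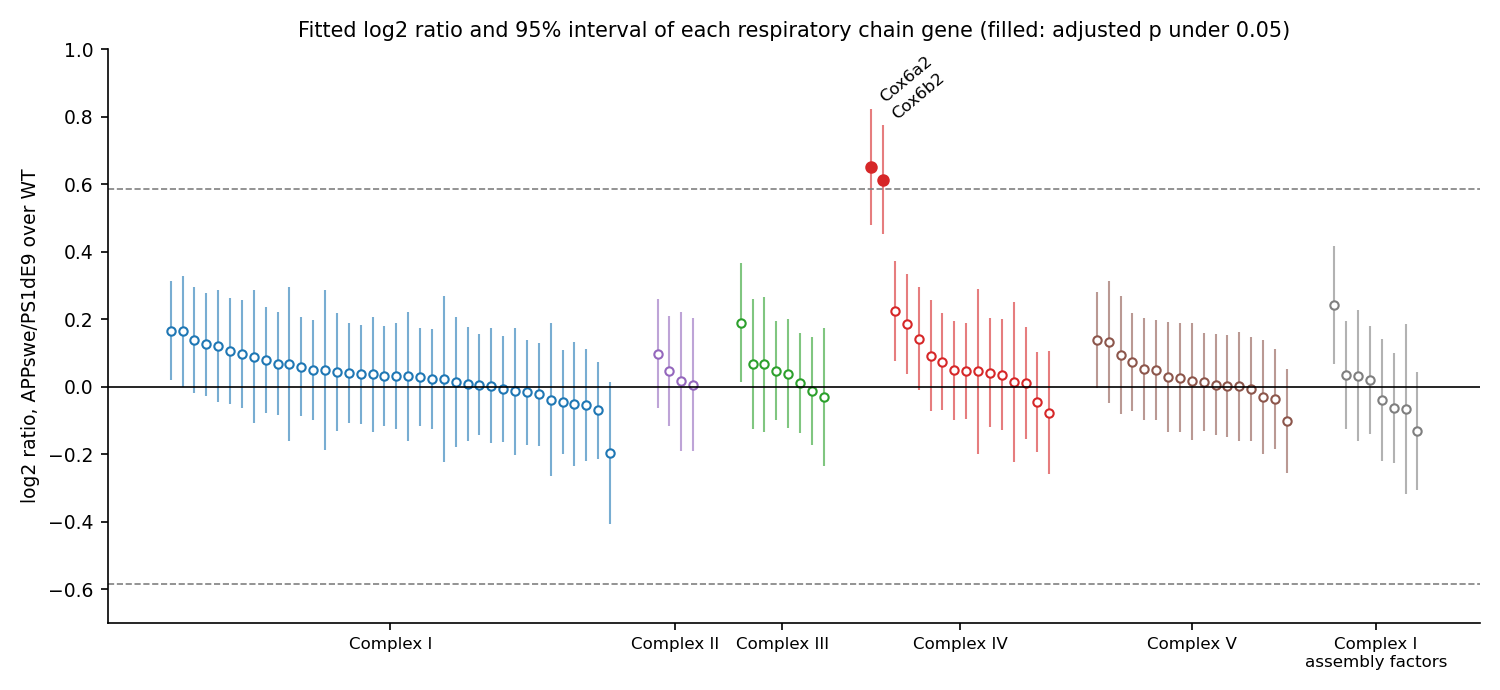
Fitted log2 ratio of APPswe/PS1dE9 over WT with its 95% interval (vertical axis) for each of the 91 genes tested, ordered within its complex (horizontal axis). Filled points are Cox6a2 and Cox6b2, the genes past the threshold, and dashed lines mark 1.5-fold in either direction. The intervals of the other 89 genes stay between the dashed lines.

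The 89 genes that did not pass were bounded rather narrowly. Their ratios ran from -0.20 (Ndufab1) to 0.24 (Ndufaf3), and 73 of the 91 genes were under 0.1 in size, against 10386 of all 20628 features. Every one of the 89 had a 95% interval within 1.5-fold of no change, against 91.2% of all features, and the interval ends reached 0.754-fold (Ndufab1) and 1.33-fold (Ndufaf3). Intervals within 1.2-fold were found for 65 of them, against 43.2% of all features. The 89 were chosen for not passing, whereas the shares of all features here and below include called features. Out of all 91 genes tested, the counts were 89 within 1.5-fold and 65 within 1.2-fold. In a fit without the dye term, whose error holds the difference between orientations too, the 89 genes again lay within 1.5-fold and 54 of them within 1.2-fold, against 89.4% and 31.9% of all features. With the dye term the median SE was 0.066, and without it 0.081. Under median centring in place of loess, 82 of the 91 ratios were below 0, against 67.3% of all features, whereas with loess 69 were above 0, against 53.4% of all features. The 89 genes were then within 1.5-fold as well, with ends at 0.699-fold (Atp5c1) and 1.32-fold (Cox4i2), and 8 were within 1.2-fold, against 12.4% of all features. In that fit the SE was pooled, at 0.118 for Cox6a2, Cox6b2 and the glycolysis genes Aldoc and Eno2 alike. A pooled SE holds no spread of a gene's own, so these interval counts follow the ratios alone.

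The order of the complexes was not stable across arrays. The medians of the fitted ratios were 0.03 for complex I, 0.03 for complex II, 0.04 for complex III, 0.05 for complex IV and 0.02 for complex V, and the array medians of a complex spread with an SD between 0.06 and 0.10 (n = 4 arrays). The 5 medians differed by less than this spread. All complexes share the 4 arrays, so the spread is not the error of a difference between complexes. Complex IV had the highest array median on arrays 1 and 2 (0.15 and 0.09), and complex III on arrays 3 and 4 (0.09 and 0.18). No difference between complexes was tested. The median was 0.03 over all 91 genes and 0.01 over all features. Under median centring of each array in place of loess, all 5 medians were below 0, between -0.12 for complex IV and -0.17 for complex V, where the median of all features was -0.07. The same centring gave 1312 features higher and 1313 lower, against 1699 and 471 with loess, and left Cox6a2 and Cox6b2 as the 2 genes called. These calls rest on the pooled SE of that fit, not on the spread of each gene, so the counts are not like for like.

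**Figure D4:**
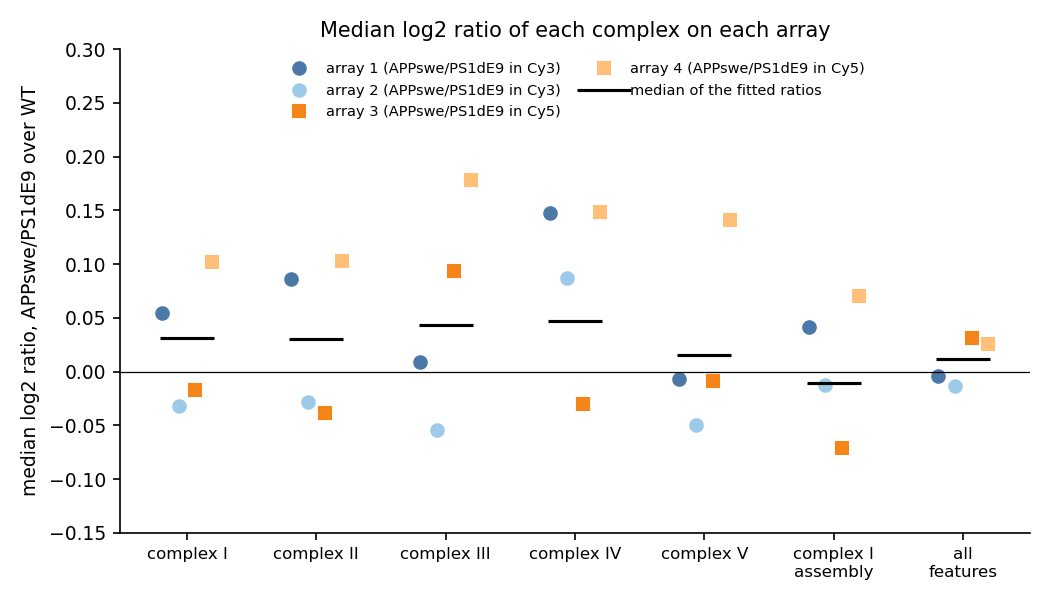
Median log2 ratio of APPswe/PS1dE9 over WT (vertical axis) over the genes of each complex, the complex I assembly factors and all features (horizontal axis), on each array (points) and in the fit (black bars). Array 4 gave the highest median in every complex, and the array medians of a complex differ by more than the fitted medians of the complexes do.

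**Figure D5:**
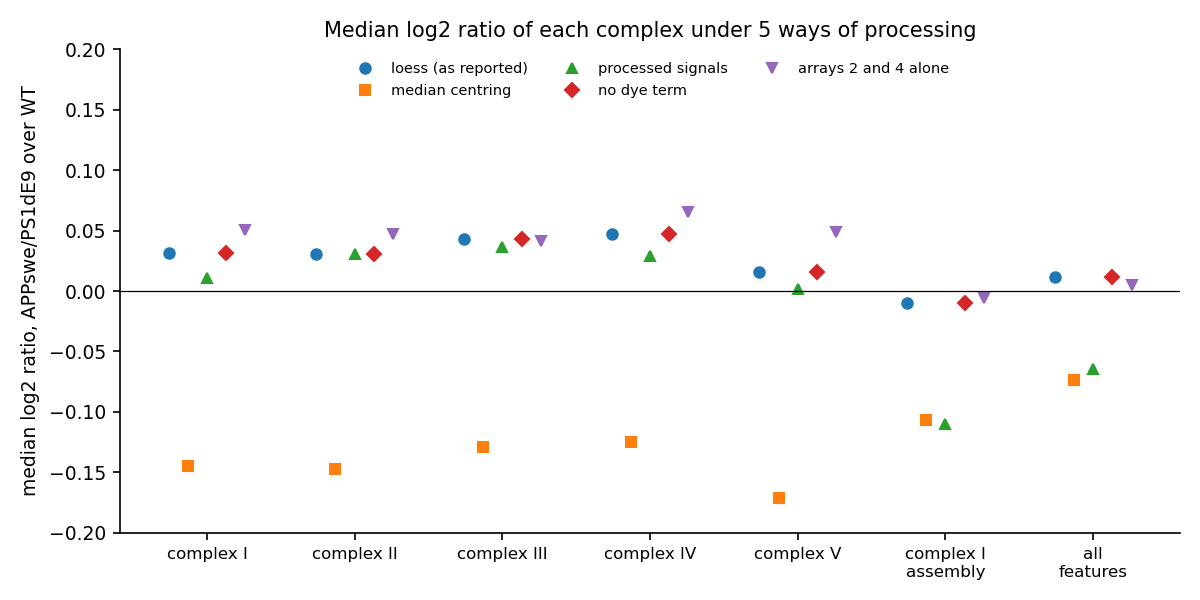
Median log2 ratio of APPswe/PS1dE9 over WT (vertical axis) of each complex, the assembly factors and all features (horizontal axis) under 5 ways of processing. Median centring put every group below 0, and the other 4 ways kept the medians of complexes I to V between 0.00 and 0.07.

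Part of the spread between arrays ran with the dye orientation, in about as large a share of these genes as of all features. In 27 genes arrays 3 and 4 were both above arrays 1 and 2, and in 16 both below, together 43 of 90, against 49.5% of all features for either pattern. Across the 90 genes with values on 4 arrays, the Spearman correlation of the log2 ratios was 0.49 between arrays 1 and 2 and 0.44 between arrays 3 and 4, which share an orientation, against 0.55 and 0.49 over all features. Between arrays of different orientation it was -0.25, -0.23, 0.12 and -0.36, against 0.11 to 0.27 over all features. These are descriptions over genes that share the same 4 arrays. The orientations differed by over 0.3 in 12 genes, against 23.7% of all features, led by Cox6a1 (0.49), Uqcrh (0.44) and, in the other direction, Ndufa4l2 (-0.43). For Cox6a2 and Cox6b2 the orientations differed by 0.17 and 0.19, well under their ratios. No feature had a dye term past the threshold (0 of 20628 by limma, and 3121 at an unadjusted p under 0.05), but a test that misses its threshold is no sign of likeness between orientations.

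Where a gene had several probes, they gave like values. Of the 31 other probes of 24 genes, 30 passed the filter, with log2 ratios between -0.19 and 0.20 and none past the threshold. They differed from the chosen probe by a median of 0.026 and at most 0.12. Cox6a2 and Cox6b2 were read by 1 probe each. Both lie on chromosome 7. Of the 5 nearest protein-coding genes on either side, 4 were tested beside Cox6a2 and 5 beside Cox6b2, and 0 were called. These neighbours were chosen after the values were seen. The closest to the threshold was Kmt5c, beside Cox6b2, at -0.26 (adjusted p = 0.0811).

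The X-linked genes of the chain did not stand apart on arrays 1 and 3. Ndufa1, a small membrane subunit of complex I, had ratios of -0.05, 0.01, 0.02 and 0.11 on arrays 1 to 4. Ndufb11 had -0.04, 0.09, -0.02 and -0.01, and Cox7b had 0.04, -0.07, 0.00 and 0.19.

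Genes around the chain were described in the same fit, where 8.24% of all features were higher and 2.28% lower. At an unadjusted p under 0.05 in the limma fit, the shares of all features were 15.8% and 9.73%. Cytochrome c (Cycs) was at -0.04 ± 0.06 and Cyc1, the cytochrome c1 of complex III, at 0.01 ± 0.07. Of 34 further assembly factors of complexes I to V, 0 were called (0 higher and 1 lower at an unadjusted p under 0.05), with a median of 0.01. Of 24 genes of mitochondrial carriers, channels, import and shape, 0 were called (2 higher and 0 lower at an unadjusted p under 0.05), with a median of 0.01. Atpif1, the inhibitor of the ATP synthase, was at -0.14 ± 0.08 (adjusted p = 0.296). The subunits encoded by mitochondrial DNA were not analysed here.

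Of 16 regulators of mitochondrial biogenesis and mitochondrial DNA, 0 were called, with a median of -0.10. At an unadjusted p under 0.05 in the limma fit, 0 were higher and 2 lower, against 15.8% and 9.73% of all features. The coactivator gene Ppargc1a was at 0.18 ± 0.07 (adjusted p = 0.203), and Nrf1, Gabpa and the mitochondrial transcription factor Tfam were at -0.11 ± 0.06, -0.03 ± 0.06 and -0.10 ± 0.06. Of the other motif factors, Yy1 was at -0.15 ± 0.09 and Esrra at 0.01 ± 0.06. All of these regulators were named after their values were seen, as the factors of the motifs above and their partners. Of 13 citric acid cycle enzymes, 0 were called (3 higher and 0 lower at an unadjusted p under 0.05), with a median of 0.08.

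Of 12 genes of pyruvate entry, upstream of the cycle, 3 were higher, 0 lower and 9 did not pass, against 8.24% higher and 2.28% lower among all features. The median of these 12 was 0.02, near that of the chain. Pdk4 and Pdk2, kinases that switch off pyruvate dehydrogenase, were at 0.65 ± 0.07 (adjusted p = 0.00432) and 0.30 ± 0.06 (adjusted p = 0.0313), and Pdp1, the phosphatase that switches it on, was at 0.46 ± 0.07 (adjusted p = 0.0111). Pdk4 was higher on 4 of 4 arrays, by 0.97, 0.77, 0.54 and 0.31. The 3 genes therefore hold enzymes of opposite action. Of 21 glycolysis genes, 4 were higher, 16 did not pass and 1 was lower, against the same shares of all features, and the median was 0.14. No difference between these lists and the chain was tested. Eno2 (0.38 ± 0.07, adjusted p = 0.0185), Pfkm (0.34 ± 0.07, adjusted p = 0.0295), Aldoc (0.30 ± 0.06, adjusted p = 0.0337) and Ldhb (0.25 ± 0.06, adjusted p = 0.0483) were the higher ones, and the hexokinase Hk2 was the lower one (-0.46 ± 0.10, adjusted p = 0.0413). Aldoc is also an astrocyte marker and Eno2 a neuronal enolase. Whether the call of Ldhb held under other processing was not looked up. Without replicate 3 or 4 none of Pdk4, Pdp1, Pdk2, Eno2, Pfkm, Aldoc and Hk2 passed. With the processed signals Hk2 alone of these 7 passed. Under median centring, on its pooled SE, Pdk4 and Hk2 did, with Aldoc at 0.09, Pdk2 at 0.20, Eno2 at 0.25 and Pfkm at 0.18. On arrays 2 and 4 alone, the arrays of like sex and fitted without the dye term, none of the 7 passed (lowest adjusted p = 0.113, Pdp1). Aldoc and Pdk2 also did not pass without the dye term (adjusted p = 0.127 and 0.0603), or without replicate 1 or 2. The ratios of Aldoc on arrays 1 to 4 were 0.11, 0.10, 0.57 and 0.42.

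Markers of some cell types differed between the genotypes, and no relation of these markers to Cox6a2 and Cox6b2 was examined. Among all features 8.24% were higher and 2.28% lower. At an unadjusted p under 0.05 in the limma fit these shares were 15.8% and 9.73%. Of 11 microglia and macrophage markers 10 were higher, and the summed normalized intensity of 10 of them was 12772.5 to 16871 in APPswe/PS1dE9 cultures, against 8787 to 10866 in WT cultures. The sum is weighted to the brightest genes, and the median log2 ratio of the 11 markers was 2.07, with a highest of 2.52. All 8 ependyma and choroid plexus markers were higher, with sums of 12982.5 to 18825 in APPswe/PS1dE9 cultures and 6446 to 7332 in WT cultures, and a median log2 ratio of 1.41. Of 10 astrocyte markers 6 were higher and 0 lower, with sums of 195798 to 220633 in APPswe/PS1dE9 cultures and 131295 to 171868 in WT cultures, and a median log2 ratio of 0.37. The 12 neuronal markers had 2 higher and 4 lower, with sums of 116635 to 133667 in APPswe/PS1dE9 cultures and 126791 to 144498 in WT cultures, and a median log2 ratio of -0.07. Of 8 oligodendrocyte lineage markers 0 were called (1 higher and 1 lower at an unadjusted p under 0.05), with sums of 60575 to 68708 in APPswe/PS1dE9 cultures and 50795 to 69261 in WT cultures, and a median log2 ratio of 0.06. Of 8 progenitor and proliferation markers 1 was higher and 1 lower, with sums of 26262 to 29400 in APPswe/PS1dE9 cultures and 29141 to 34720 in WT cultures, and a median log2 ratio of 0.00. Of 6 endothelial, mural and fibroblast markers 1 was higher and 2 lower, with a median log2 ratio of -0.14 and sums of 1518 to 2058 in APPswe/PS1dE9 cultures and 1837 to 2460 in WT cultures, where 0 of 4 arrays had Flt1 well above background. In these bulk cultures fewer cells of a type and less RNA per cell cannot be told apart. The part of cell makeup in the values of the respiratory chain genes was not tested.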

How the data were processed

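RNA of 4 APPswe/PS1dE9 and 4 WT cultures was measured on 4 two-colour arrays, read with Feature Extraction 11.0.1.1 and annotated on mm9, per the file headers. The scanner files the authors deposited give, per spot and channel, an unnormalized median intensity and the median of the surrounding background. They also give processed signals, which per the file headers had background subtracted and dyes normalized, and a deposited log10 ratio of the Cy5 to the Cy3 signal. For the deposited value table, whose scale, centring and direction are unstated, a comparison with the scanner files showed that it held log2 ratios of the processed signals that the authors deposited without centring (column medians -0.0797, -0.155, -0.0373 and -0.0378), running APPswe/PS1dE9 over WT.

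With limma 3.58.1 (R 4.3.3), normexp (offset 50) corrected the background and loess normalized each array, with control and outlier spots given weight 0 and then removed. Replicate spots were averaged per probe. The filter kept probes for which 1 genotype's channel was well above background on at least 3 of 4 arrays (26954 of 55681), and the brightest kept probe stood for a gene. The 20628 features, 13700 of them named, were fitted with a genotype and a dye coefficient on 2 residual and 4.12 prior degrees of freedom, two-sided. Intensities per culture were taken after loess and Aquantile scaling. The fit was tested on simulated data. Names and promoters came from RefSeq tables of GRCm38.p6, and no coordinates of the array build were used. The number of arrays limits the precision.

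Named genes were every member past the threshold, the 2 highest and 2 lowest of each complex, all of complexes II and III, the isoform families, the core of complex I (not every named gene is reported here) and, of each other list, up to 4 members past the threshold by smallest p. Ldhb, Ndufa13, the X-linked genes and the genes around the chain that did not pass were named after their values were seen. The members and lists were chosen with earlier results of these data known. Other backgrounds, scalings, filters, probe rules, arrays and memberships were tried as alternatives.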

Additional observations from a re-analysis of the deposited data

How the results depend on the processing

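The count of 2 genes higher was 1 with the processed signals (Cox6a2) and 1 with the deposited value table (Cox6a2). It was 1 when both channels had to be well above background on all arrays (Cox6b2, since Cox6a2 was then not tested). On the arrays of like sex, fitted without the dye term, it was 1 (Cox6a2). It ranged from 0 to 2 when 1 replicate was left out, with 1 without replicate 3 (Cox6b2) and 0 without replicate 4. No member was lower in any of these. Over its alternatives Cox6a2 ranged from 0.58 to 1.06 and lost its call in 2 of 13, and Cox6b2 ranged from 0.56 to 0.67 and lost it in 4 of 14. Median centring moved the medians to -0.14 for complex I, -0.15 for complex II, -0.13 for complex III, -0.12 for complex IV, -0.17 for complex V and -0.11 for the assembly factors. The assembly factors were also at -0.11 with the processed signals and -0.083 with the value table. The difference of Cox6a2 from Cox6a1 was 1.04 with both. The cause of these moves was not tested. The 46 other named members passed in 0 of 643 alternative values (lowest adjusted p = 0.0541), and 73 of the values had the other sign.

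Over all features the calls were 1699 higher and 471 lower. They were 724 and 240 with the processed signals, 725 and 238 with the value table, 960 and 103 without the filter, 1369 and 259 without the dye term, 520 and 29 without replicate 3, 370 and 6 without replicate 4, and 462 and 11 on the arrays of like sex. The fit is itself paired, since each array's ratio sets 1 APPswe/PS1dE9 culture against 1 WT culture, and the labels give no other pairing to use as a block. Dim probes such as that of Cox6a2 limit how well a ratio is known.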
